A study of Mus musculus with 3 samples.

Results

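Lambda light chain B cells were picked out of single-cell RNA sequencing data from mouse left lungs. They were defined as B cells in which the summed UMIs (unique molecular identifiers, 1 per captured transcript) of the lambda constant genes Iglc1, Iglc2 and Iglc3 exceeded those of the kappa constant gene Igkc. A cell was kept if it held over 200 and under 6000 genes, less than 10% of its UMIs on mitochondrial genes and a total below 25000 UMIs. It counted as a B cell if Cd79a, Cd79b, Ms4a1, Ebf1 and Bank1 together gave at least 2 UMIs, if Cd3d, Cd3e and Cd3g gave 0, if S100a8, S100a9 and Lyz2 together took less than 0.5% of UMIs, and if Jchain took less than 1%. In all, 335 of 22265 deposited cells were lambda B cells, and 3329 further B cells of the same libraries were set beside them.

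The labels give the strain C57BL/6J for all 3 conditions, although the study's methods list its CD45.1 mice as the congenic strain B6.SJL-Ptprca Pepcb/BoyJ. Each condition was a single library made from cells of 2 pooled mice, so no condition had a replicate. Naive left lungs had no ischemia. The other libraries came from syngeneic left lung transplants, CD45.2 donor to CD45.1 recipient, in which the graft was held for 60 minutes at 4 °C and then for 45 minutes at 28 °C before reperfusion for 2 hours or for 3 days. Cells were sorted for CD45.1, the mark of recipient leukocytes, and the labels state that sort for the naive library as well. By that sort the B cells of the transplants were cells of the recipient in the graft.

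Each B cell carries an antigen receptor of paired heavy and light chains, and the light chain is of the kappa or the lambda type. In developing B cells the kappa locus usually rearranges first and the lambda locus is used when kappa rearrangement fails or gives an autoreactive receptor, so that a mature cell as a rule makes only one of them. Mice use lambda in a small minority of B cells. Their lambda locus holds few variable genes and several constant genes, each behind its own joining segment.

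The class rests on reads that can be assigned to these constant genes, so the same stretch of each is shown, 99 bases of the coding sequence on the minus strand of chromosome 16 (GRCm38, GENCODE vM21), at chr16:19061898-19061996 for Iglc1, chr16:19198679-19198777 for Iglc2 and chr16:19065508-19065606 for Iglc3. Capitals mark the positions at which at least 1 of the 3 genes differs.
Iglc1: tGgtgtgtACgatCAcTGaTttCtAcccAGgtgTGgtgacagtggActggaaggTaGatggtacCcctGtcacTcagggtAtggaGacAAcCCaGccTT
Iglc2: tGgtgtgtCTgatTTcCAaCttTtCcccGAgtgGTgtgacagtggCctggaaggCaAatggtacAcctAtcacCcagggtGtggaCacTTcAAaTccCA
Iglc3: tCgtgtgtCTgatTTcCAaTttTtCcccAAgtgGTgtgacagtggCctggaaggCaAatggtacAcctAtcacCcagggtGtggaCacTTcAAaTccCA
In this window Iglc1 differed from Iglc2 at 28 positions and from Iglc3 at 27, whereas Iglc2 and Iglc3 differed at 3. Over the whole coding part, Iglc2 and Iglc3 were 96.2% identical with an unbroken shared run of 79 bases, and their 3 prime untranslated parts were 90.2% identical. Iglc1 was 73.4% identical to Iglc2 and 74.5% to Iglc3 in the coding part, and 52.1% and 52.8% in the untranslated part. The split of reads between Iglc2 and Iglc3 is therefore uncertain, and these 2 genes were summed wherever types of lambda cell were compared.

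Depth differed strongly between the libraries. The deposited files held 2921 naive cells with 28538529 UMIs, 10328 cells at 2 hours with 10749100 UMIs and 9016 cells at 3 days with 70750470 UMIs. Kept cells had medians of 7298.5 (naive), 878 (2 hours) and 5716.5 UMIs (3 days). Lambda B cells were as shallow as their library: their median was 5871 UMIs in naive lungs, 804 at 2 hours and 5312.5 at 3 days, against 6264, 761 and 5038 in the other B cells. They held 306525, 177419 and 598293 UMIs in all. The library at 2 hours thus stands apart by its low depth. Few cell barcodes were shared between libraries (8 between naive and 2 hours, 1 between naive and 3 days, and 23 between 2 hours and 3 days), and 1 of them belonged to a lambda cell.

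Lambda cells were a small part of the B cells in each library. There were 49 among 552 B cells in naive lungs, or 8.88% (exact Clopper-Pearson 95% interval 6.64% to 11.6%). At 2 hours there were 190 among 1220, or 15.6% (13.6% to 17.7%). At 3 days there were 96 among 1892, or 5.07% (4.13% to 6.16%). The intervals cover counting error only, and since the cells were chosen by their light chain UMIs, these shares are a description without a test.

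The share at 2 hours rested on very few UMIs per cell. The median lambda cell held 25 lambda constant UMIs in naive lungs, 3 at 2 hours and 16 at 3 days, with a median of 1 Igkc UMI in each library. At 2 hours, 84 of the 190 lambda cells (44.2%) exceeded Igkc by a single UMI, compared with 3 naive cells and 3 cells at 3 days. Just outside the threshold, 4, 80 and 8 cells had equal counts of both chains above 0, and 18, 190 and 20 cells had 1 Igkc UMI more than lambda UMIs. When every cell was thinned to 500 UMIs and the rule was applied again, the shares were 11% (8.47% to 14.1%), 14.1% (11.8% to 16.6%) and 7.47% (6.15% to 8.97%). This left out 6 lambda and 36 other B cells at 2 hours for lack of depth, and 516, 854 and 1405 cells still met the B cell rule. Of the cells called lambda after thinning, 64.9% (naive), 77.5% (2 hours) and 53.3% (3 days) were lambda at full depth, and 18 of 57, 13 of 120 and 42 of 105 had more Igkc at full depth. With a stricter threshold, which asked for at least 2 times the Igkc UMIs plus 2, the shares were 6.70%, 6.23% and 4.28% of all B cells. These were 37, 76 and 81 lambda cells, while 409, 564 and 1646 other B cells passed the matching threshold for Igkc. Cells that passed neither threshold stayed in the denominator and were most frequent at 2 hours. The ranking of the libraries by these shares therefore rests on that denominator, and the part of depth was not tested.

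**Figure D1:**
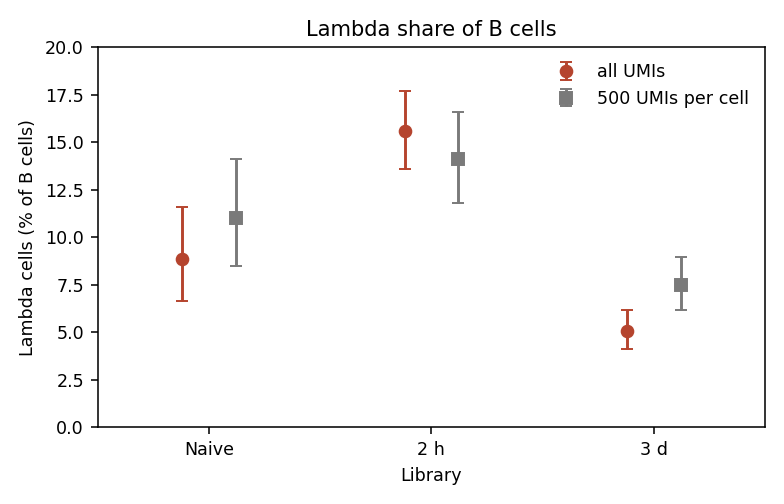
Lambda cells as a percent of B cells (vertical axis) in the naive, 2 h and 3 d libraries, with all UMIs (circles) and with 500 UMIs drawn per cell (squares). Bars are exact 95% intervals for counting error, and the 2 h value is the highest at both depths (15.6% and 14.1%).

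The split of the light chains, which the rule used, was incomplete in each library. In 30 of the 49 naive lambda cells (61.2%) and 65 of the 96 at 3 days (67.7%), at least 90% of the light chain UMIs were lambda. At 2 hours this held for 87 of 190 (45.8%). Of these cells, 2 (naive), 33 (2 hours) and 2 (3 days) held a single lambda UMI and no Igkc, which sets their share in full. Igkc was at 0 in 46.9%, 43.7% and 47.9% of the lambda cells. Levels are given from here on as CPM, the summed UMIs of a gene scaled to the same total of UMIs per class and library, and in the order naive, 2 hours, 3 days. Igkc stood at 1164.7, 1566.9 and 557 CPM in lambda cells, against 5505.5, 4701.2 and 5597.6 CPM in the other B cells. The rule itself sets lambda above Igkc in each lambda cell, so these values describe the selection.

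**Figure D2:**
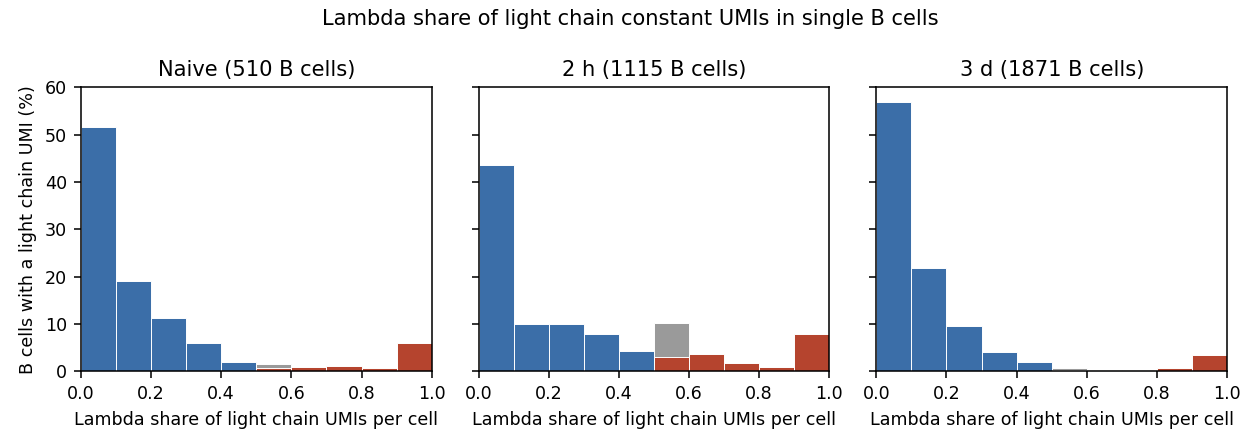
Percent of B cells with at least 1 light chain UMI (vertical axis) by the lambda share of their light chain constant UMIs (horizontal axis), in bins of 0.1, for each library. Red bars are lambda cells, blue bars cells with more Igkc, and grey the cells with equal counts (4, 80 and 8 cells). Lambda cells gather in the last bin, which holds 30, 87 and 65 cells. Of these, 2, 33 and 2 had a single lambda UMI and no Igkc.

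Lambda UMIs were also found in many of the other B cells. A lambda constant UMI was present in 70.2%, 44.6% and 78.0% of the other B cells of the 3 libraries. In T cells of the same libraries (at least 2 UMIs of Cd3d, Cd3e and Cd3g) it was present in 2.43%, 0.522% and 3.78%, although T cells were deeper, with median UMI counts of 9844, 1258 and 8260.5. Igkc, by comparison, was found in 11.9%, 1.12% and 25.5% of T cells. Other B cells held 5.47 lambda constant UMIs per cell in naive lungs, 0.885 at 2 hours and 4.18 at 3 days.

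These UMIs had another makeup than those of lambda cells. Iglc1 gave 17.8% (16.4% to 19.3%) of the lambda constant UMIs of the other naive B cells, 12% (9.92% to 14.2%) at 2 hours and 15.0% (14.2% to 15.8%) at 3 days, compared with 48.3% (46.1% to 50.5%), 28.6% (25.6% to 31.7%) and 39.9% (37.9% to 41.8%) in lambda cells. Iglc3 went the other way, with 32.3%, 28.7% and 31.0% in other B cells and 11.7%, 21.5% and 9.67% in lambda cells. In 3 day cells Iglc3 was detected in 54.6% of the other B cells and in 46.9% of the lambda cells. Iglc2 was assigned 49.9%, 59.3% and 54.0% in other B cells, and the shares of Iglc2 and Iglc3 hold only as far as the counting could tell these near-identical genes apart. The Iglc1 and Iglc3 shares of lambda cells at 2 hours lay between those of lambda cells and of other B cells in the deeper libraries.

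**Figure D3:**
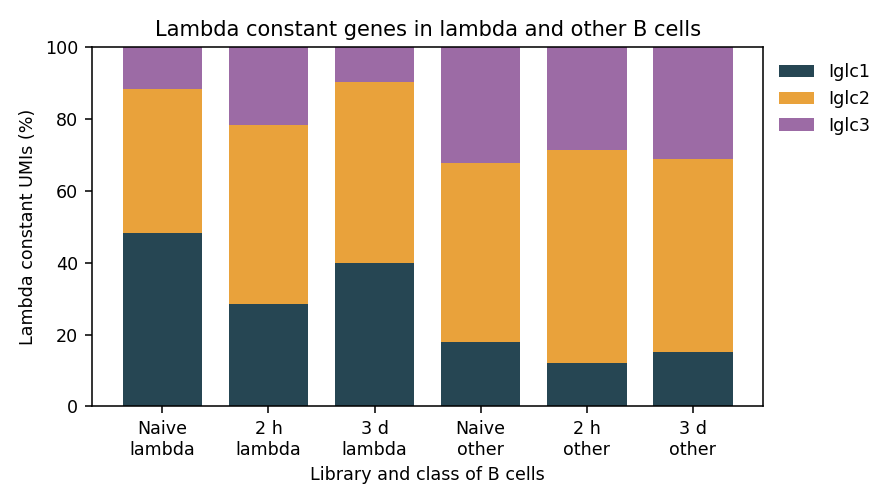
Percent of lambda constant UMIs (vertical axis) from Iglc1, Iglc2 and Iglc3, in lambda cells (left 3 bars) and other B cells (right 3 bars) of each library. The Iglc1 part is between 28.6% and 48.3% in lambda cells and between 12% and 17.8% in other B cells.

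Among lambda cells, Iglc1 cells and Iglc2 or Iglc3 cells were both present. More Iglc1 than Iglc2 plus Iglc3 UMIs were found in 20 of 49 naive lambda cells (40.8%, exact interval 27.0% to 55.8%), in 37 of 190 at 2 hours (19.5%, 14.1% to 25.8%) and in 49 of 96 at 3 days (51.0%, 40.6% to 61.4%). Among cells that passed the stricter threshold, the shares were 45.9%, 25% and 53.1%. Of lambda cells with at least 10 lambda constant UMIs, Iglc1 gave at least 90% in 4 of 39 naive cells and at most 10% in 10, and the remaining 25 lay between. At 2 hours 2 of 20 such cells had at least 90%, 8 at most 10% and 10 lay between. At 3 days 14 of 63 cells had at least 90%, 27 at most 10% and 22 lay between. Median depth was 6176 UMIs in Iglc1 cells and 5648 in the others in naive lungs, and 4885 and 5745.5 at 3 days. Igkc stood at 807, 1680.0 and 440 CPM in Iglc1 cells and at 1411.4, 1587.5 and 656 CPM in the others. At 2 hours the counting intervals of these levels overlapped, and Igkc is a gene of the rule.

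Variable genes were barely read. Iglv1, the variable gene joined mainly to Iglc1 and Iglc3, gave 8 UMIs in 7 of the naive lambda cells, 8 UMIs in 5 cells at 2 hours and 5 UMIs in 5 cells at 3 days. Those are 26.1, 45.1 and 8.36 CPM, compared with 1.56, 6.48 and 0.386 CPM in other B cells. The 165 kappa variable and joining genes together gave 55.5, 84.5 and 1.67 CPM in lambda cells and 70.4, 166 and 26.0 CPM in other B cells. The labels name both a 5 prime and a 3 prime reagent kit while the methods name a 3 prime kit, so variable genes were not used to name clones or pairs of segments.

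Cd79a, a signalling chain of the B cell receptor, was a gene of the rule, so its level describes the selection and checks nothing. It stood at 2365.2, 1944.5 and 1840.2 CPM in lambda cells and 1917.5, 1769.8 and 1883.8 CPM in other B cells. The label was checked against Pax5, the transcription factor of B cell identity, which the rule did not use. It was found in 93.9%, 14.7% and 86.5% of lambda cells, and in 91.1%, 17.3% and 85.7% of other B cells. No share in T cells was set beside these values, so the part of background RNA in them was not tested. In CPM, Pax5 stood at 1102.7, 197 and 478 in lambda cells and at 761, 220 and 439 in other B cells, so that its level was lowest at 2 hours in both classes. A UMI of this marker was thus found in few single cells at 2 hours, where the median lambda cell held 804 UMIs. At that depth, cells without one cannot be counted as lacking Pax5.

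4 lambda cells went against the label. They were 1 cell at 2 hours and 3 cells at 3 days, each with at least 2 UMIs of Siglech, a surface lectin that marks plasmacytoid dendritic cells, and no other B cell in any library reached that count. The 3 cells at 3 days held 81, 36 and 51 Siglech UMIs, 50, 53 and 43 of Bst2, 23, 39 and 28 of Ccr9 and 24, 42 and 29 of Tcf4. They carried 9, 11 and 5 Iglc3 UMIs with 0 of Iglc1 and Iglc2, and Ms4a1 and Pax5 were at 0 in all 3. They were kept, because the rule takes them. The counts of genes called between the classes and of genes past 2-fold between conditions are also given without them, and so are calls of named genes that were lost and marker sums of other cell types, while antibody counts were not recomputed. This check was chosen after the data had been seen.

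To ask how lambda cells differed from the B cells around them, UMIs were summed for lambda and for other B cells of each library, and the 6 sums were compared with the library as a block. The 3 libraries served as replicates of the difference between the classes, although they differ in condition and depth. Lambda cells had more IgM heavy chain transcript and more of 3 genes of immature B cells (2 without the 4 Siglech cells). They had less of 2 MHC class II genes (1 without those cells) and of 2 early response genes. The chemokine genes Ccl4, Ccl5 and Cxcl2 were lower too, of which Cxcl2 lost its call against cells with more Igkc. By the rule each lambda cell held a light chain UMI, while 42, 105 and 21 other B cells (naive, 2 hours, 3 days) held none. The part of those cells in the lower genes was not tested. Of 7149 genes tested outside the genes of the rule, 29 (0.406%) were higher and 38 (0.532%) lower in lambda cells at an adjusted p below 0.05 (edgeR quasi-likelihood test with Benjamini-Hochberg adjustment). Of these, 26 and 35 went the same way in all 3 libraries. Without the 4 Siglech cells, 16 were higher and 27 lower, all of them among the genes above. Without the library as a block the same edgeR test called 0 in both directions (18 higher and 22 lower at an unadjusted p under 0.05). DESeq2 with the block called 19 and 8. After thinning to 500 UMIs, which left 2739 genes to test, 1 and 1 were called. With the naive, 2 hour or 3 day library left out, 41, 69 and 46 genes were higher and 39, 79 and 54 lower. These included 15, 28 and 16 of the 29 higher genes and 22, 34 and 23 of the 38 lower genes.

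Ighm, the constant region of the IgM heavy chain, at chr12:113418558-113422730 on the minus strand, was the gene with the smallest p among those higher. It stood at 3833.3, 1843.1 and 3648.7 CPM in lambda cells, against 2072.8, 1423.0 and 2594.8 CPM in other B cells. Lambda cells were above other B cells in each of the 3 libraries, with counting intervals of the log2 ratio of 0.80 to 0.98, 0.19 to 0.55 and 0.43 to 0.55. The fitted log2 difference was 0.57 (SE 0.07, n = 3 libraries, adjusted p = 3.27e-05, edgeR). Ighd, the IgD constant region made from the same primary transcript, was at 600, 705 and 906 CPM in lambda cells and 621, 644 and 1015.4 CPM in other B cells, and its difference of −0.08 (SE 0.08) did not pass the test (adjusted p = 0.898, edgeR). Switched isotypes were rare: Ighg2b gave 16 UMIs at 3 days, all in 1 lambda cell, and Ighg1 gave 0 UMIs in lambda cells of each library.

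Of the 7 genes of immature and transitional B cells, 3 were called higher in lambda cells (0.406% over all genes tested) and none lower, and without the Siglech cells 2 were called. The median log2 difference of the 7 was 0.66, compared with −0.02 over all genes tested. Ly6d, a surface protein of early B lineage cells, stood at 1924.8, 1240.0 and 1166.7 CPM in lambda cells and 875, 805 and 940 CPM in other B cells. Its fitted log2 difference was 0.66 (SE 0.10, adjusted p = 0.000727, edgeR), and all 3 lambda sums lay above all 3 sums of other B cells.

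Cd24a, the heat stable antigen carried at high level by immature B cells, stood at 375, 423 and 254 CPM against 148, 240 and 198 CPM, a log2 difference of 0.78 (SE 0.15, adjusted p = 0.00827, edgeR). Spib, an Ets family transcription factor, was also called (0.66, SE 0.15, adjusted p = 0.0288, edgeR) but not without the Siglech cells (0.52, adjusted p = 0.185), without the library at 3 days or under DESeq2. Vpreb3, which assists assembly of the pre-B cell receptor, was at 365, 214 and 119 CPM in lambda cells and 152, 140 and 116 CPM in other B cells, with an adjusted p of 0.113 (edgeR). Sox4 had a log2 difference of 1.36 (adjusted p = 0.055, edgeR). For Ly6d, Cd24a and Vpreb3 the difference was largest in the naive library. Ly6d lost its call under DESeq2, and Cd24a kept it.

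Rag1, part of the recombinase that cuts the antigen receptor loci, was too sparse for the test. In naive lungs it gave 9 UMIs in 5 of 49 lambda cells (10.2%), the most in 1 cell being 4, and 4 UMIs in 0.596% of the 503 other B cells. This was 29.4 CPM (Poisson interval 13.4 to 55.7) and 1.25 CPM (0.34 to 3.19). No Rag1 UMI was found in lambda cells of the transplants, where 3 UMIs would be 16.9 (2 hours) and 5.01 CPM (3 days), nor in their other B cells. Rag2 was at 0 in lambda cells of each library.

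Several further genes were higher in lambda cells. Serinc5, a membrane protein that restricts retroviral infectivity, stood at 238, 39.5 and 38.4 CPM in lambda cells and at 40.5, 24.9 and 12.4 CPM in other B cells (log2 difference 1.95, SE 0.27, adjusted p = 0.000196, edgeR). Ifi30, a lysosomal reductase that prepares antigens for MHC class II, stood at 372, 124 and 366 CPM against 144, 76.7 and 216 CPM (0.95, SE 0.14, adjusted p = 0.000853, edgeR). Both were higher in each of the 3 libraries, and the counting interval at 2 hours reached below 0 for both.

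Hdac9, a histone deacetylase, and Tmem163, a zinc transporter, were mainly read in naive cells, with 427 and 998 CPM in naive lambda cells against 158 and 559 CPM in the others. Their log2 differences were 1.14 (SE 0.21) and 0.81 (SE 0.15), both with an adjusted p of 0.00693 (edgeR). Atp1b1, a subunit of the sodium pump, had a log2 difference of 1.34 (SE 0.27, adjusted p = 0.0132, edgeR) and Mctp2 one of 1.31 (SE 0.27, adjusted p = 0.0154, edgeR). The calls of Serinc5, Hdac9, Tmem163 and Atp1b1 were lost without the naive library, and those of Mctp2 and Bst2 without the library at 3 days. Without the Siglech cells Atp1b1 (1.09, adjusted p = 0.0904, edgeR) and Mctp2 (0.97, adjusted p = 0.0527, edgeR) were not called.

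Bst2, an interferon-induced surface protein that is abundant in plasmacytoid dendritic cells, lay mostly in the Siglech cells. It was at 42.4, 56.4 and 281 CPM in lambda cells and 41.5, 17.3 and 38.3 CPM in other B cells, with a fitted log2 difference of 2.01 (SE 0.33, adjusted p = 0.00165, edgeR). Without the 4 Siglech cells the difference was 0.10 (adjusted p = 0.984). The macrophage and dendritic cell gene Mpeg1 went from 1.35 to 0.11 in the same way, and the lysosomal genes Ctsb and Psap from 0.92 to 0.58 and from 0.58 to 0.28, each losing its call.

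Lower genes were led by Vps37b, a subunit of a complex that sorts membrane proteins into endosomal vesicles. It stood at 506, 389 and 461 CPM in lambda cells and at 1092.2, 555 and 771 CPM in other B cells. All 3 libraries had it lower in lambda cells, with a fitted log2 difference of −0.85 (SE 0.10, adjusted p = 4.18e-05, edgeR). Satb1, a chromatin organizer of lymphocytes, was at 1256, 1070.9 and 573 CPM against 1944, 1206.9 and 866 CPM (−0.52, SE 0.08, adjusted p = 0.00128, edgeR), and Stat4, which relays interleukin 12 signals, at 646, 90.2 and 149 CPM against 1244, 119 and 192 CPM (−0.70, SE 0.13, adjusted p = 0.00855, edgeR). Pde4d, a cyclic AMP phosphodiesterase, had a difference of −1.96 (SE 0.34, adjusted p = 0.00386, edgeR). The calls of Stat4 and Pde4d were lost without the naive library and under DESeq2. Vps37b stood at 2005.4, 1242.9 and 1344.8 CPM in T cells, above both classes of B cell, and the part of T cell RNA in its difference was not tested.

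MHC class II molecules present antigen to CD4+ T cells. Of the 10 genes of that list, 2 were lower in lambda cells (0.532% over all genes tested) and none higher, and the median log2 difference was −0.24. H2-Aa stood at 2998.1, 5647.6 and 3998.0 CPM in lambda cells and 3783.0, 6467.7 and 4581.8 CPM in other B cells (−0.27, SE 0.05, adjusted p = 0.00246, edgeR). H2-Ab1 had a difference of −0.26 (SE 0.05, adjusted p = 0.014, edgeR), which was not called without the Siglech cells (adjusted p = 0.0693) or with the stricter threshold. The steps were small but went the same way in each library, and the invariant chain gene Cd74 had a difference of −0.11 (adjusted p = 0.102, edgeR).

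**Figure D4:**
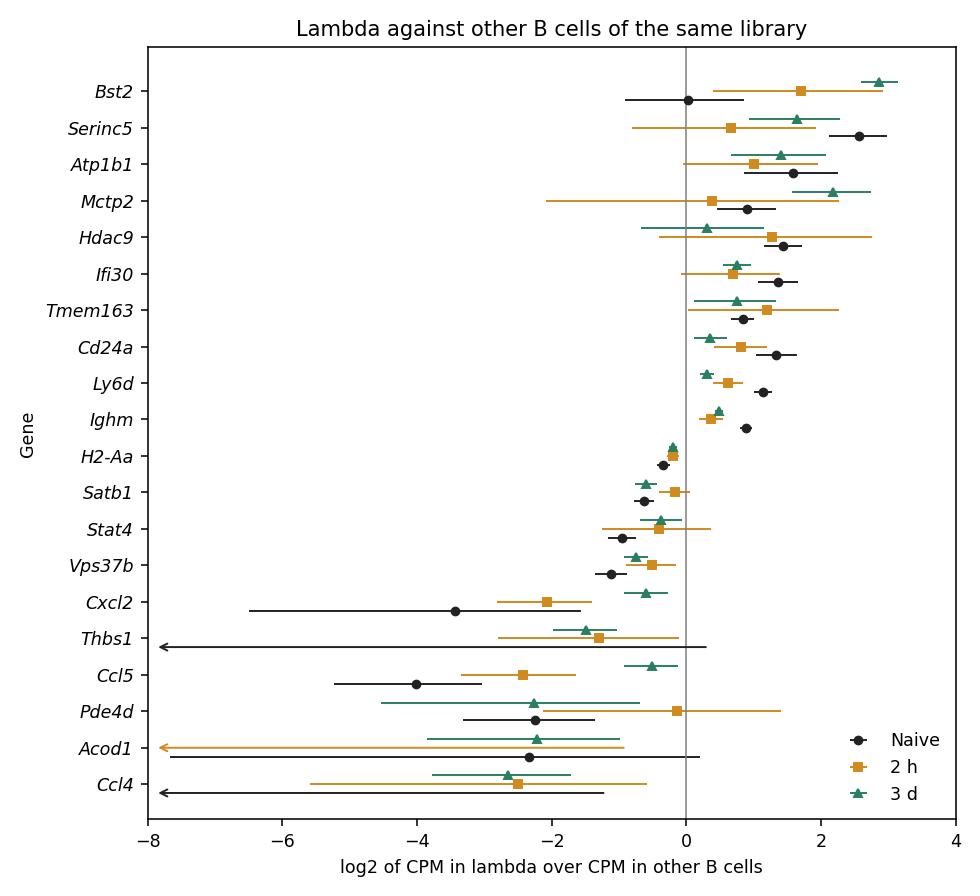
Log2 ratio of CPM in lambda over other B cells (horizontal axis) for the 10 genes of smallest p in each direction (vertical axis), with 95% counting intervals, by library. Arrows mark genes with 0 UMIs in lambda cells and start at the upper end of the interval. Ighm and Ly6d lie above 0 and Vps37b and H2-Aa below 0 in all 3 libraries with intervals that do not reach 0.

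Ccl4 and 2 early response genes were lower too. Ccl4, a chemokine that activated B cells, NK cells and myeloid cells release, gave 0, 2 and 9 UMIs in lambda cells, or 0, 11.3 and 15.0 CPM, against 27.7, 63.7 and 93.7 CPM in other B cells (−2.81, SE 0.36, adjusted p = 9.88e-05, edgeR). Junb and Dusp1 were the 2 members called lower of 12 immediate-early genes (0.532% over all genes tested), with differences of −0.44 (SE 0.09, adjusted p = 0.0132, edgeR) and −0.80 (SE 0.17, adjusted p = 0.0208, edgeR), and no member was higher. Dusp1 lost its call without the library at 2 hours, under DESeq2, against cells with more Igkc and with the stricter threshold, and Junb lost its call with the stricter threshold. The median of that list was −0.27, and that of 9 genes of B cell receptor activation, of which Ccl4 alone was called, −0.28. Nr4a1, the usual reporter of receptor signalling, had a difference of −0.28 (adjusted p = 0.459, edgeR).

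Other genes in this group belong to other leukocytes. Ccl5, made by NK and T cells, stood at 26.1, 73.3 and 93.6 CPM in lambda cells and 423, 393 and 133 CPM in other B cells (−1.88, SE 0.31, adjusted p = 0.00246, edgeR), while T cells held 1686.5, 2103.2 and 2034.7 CPM. Cxcl2, Acod1 and Thbs1, genes of activated myeloid cells, had differences of −1.28, −2.58 and −1.52 (SE 0.24, 0.49 and 0.24; adjusted p = 0.00721, 0.00827 and 0.00158, edgeR), of which that of Thbs1 was lost without the library at 3 days. Ccl5 and Cxcl2 were not called by DESeq2. The NK cell markers summed to 16.3, 50.7 and 181 CPM in lambda cells and 438, 116 and 132 CPM in other B cells, and without the Siglech cells to 51.4 (2 hours) and 193 CPM (3 days). Gzma was the most abundant of them at 3 days, where 71 of its 75 UMIs lay in 1 lambda cell, and Klrb1c was at 0 in lambda cells of the naive and 2 hour libraries.

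The neutrophil markers, 2 of which belong to the rule, summed to 117, 535 and 562 CPM in lambda cells and 211, 535 and 807 CPM in other B cells, and without the Siglech cells to 537 (2 hours) and 570 CPM (3 days). Il1b, called lower (−1.13, adjusted p = 0.0326, edgeR) but not without the library at 3 days, under DESeq2 or with the stricter threshold, stood at 9.79, 282 and 90.3 CPM in lambda cells and 92.3, 265 and 273 CPM in other B cells. At 2 hours 30 of its 50 UMIs lay in a single lambda cell. The T cell markers, of which the rule holds Cd3d, Cd3e and Cd3g at 0, summed to 16.3, 28.2 and 46.8 CPM against 33.7, 50.8 and 19.4 CPM, and without the Siglech cells to 28.5 (2 hours) and 17.9 CPM (3 days), below the other B cells. The monocyte and macrophage markers, which include the rule gene Lyz2, summed to 176, 39.5 and 428 CPM against 139, 38.9 and 464 CPM, and without the Siglech cells to 28.5 CPM at 2 hours, also below the other B cells, and 372 CPM at 3 days. The endothelial markers summed to 372, 90.2 and 127 CPM against 360, 89.7 and 164 CPM, with 85.6 (2 hours) and 129 CPM (3 days) without the Siglech cells. The plasmacytoid dendritic cell markers summed to 522, 626 and 1668.1 CPM against 551, 435 and 606 CPM, and without the Siglech cells to 508 (2 hours) and 663 CPM (3 days). The part of these cells in the lower levels of Ccl4, Ccl5, Cxcl2, Acod1 and Thbs1 was not tested. When only B cells with more Igkc than lambda UMIs served for comparison, Ccl4, Ccl5 and Thbs1 kept their calls and Cxcl2 and Il1b lost theirs. Acod1 was not among the genes fitted in that comparison.

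Genes of named B cell subsets were called in both directions, beside shares of 0.406% higher and 0.532% lower over all genes tested. Of 5 marginal zone genes tested, Mzb1, a chaperone of immunoglobulin assembly (0.54, SE 0.12, adjusted p = 0.0278, edgeR), and Plac8 (0.44, SE 0.10, adjusted p = 0.0377, edgeR) were higher and Cr2 was lower. Cr2, the complement receptor CD21, stood at 32.6, 22.5 and 73.5 CPM against 80.4, 67.0 and 118 CPM (−0.95, SE 0.22, adjusted p = 0.0288, edgeR). The calls of Plac8 and Cr2 were lost without the Siglech cells, and those of Mzb1 and Plac8 without the library at 3 days. All 3 lost their calls with the stricter threshold, and Cr2 also under DESeq2. Of 6 B-1 genes tested, Bhlhe41, a transcription factor needed for B-1a cells, was called. It gave 4, 52 and 18 UMIs in lambda cells, or 13, 293 and 30.1 CPM against 9.97, 95.1 and 15.5 CPM (1.21, SE 0.26, adjusted p = 0.0208, edgeR), and the call was lost without the library at 2 hours. Cd5, the surface marker of B-1a cells, gave 2, 0 and 0 UMIs in lambda cells.

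No member of the 8 follicular genes was called by edgeR or DESeq2, while 3 had an unadjusted p under 0.05 in edgeR. Over all 7149 genes tested, edgeR called 0.406% higher and 0.532% lower. At an unadjusted p under 0.05 it had 258 genes higher and 347 lower. Fcer2a, the low affinity IgE receptor CD23, was at 160, 130 and 134 CPM in lambda cells and 206, 167 and 226 CPM in other B cells, with an adjusted p of 0.0674 (edgeR). The 8 homing genes likewise had no call by either tool and 3 unadjusted p under 0.05 in edgeR. The 16 genes of coreceptors and signalling had 1 call, Cr2, and a median of 0.05, and the 4 genes tested of the Toll-like receptor and CCR2 ligand list had 1, Cd14 (−1.22, adjusted p = 0.0352, edgeR), which was lost without the library at 3 days, without the Siglech cells (adjusted p = 0.0527, edgeR), with doublets removed, under DESeq2, with the stricter threshold and against cells with more Igkc. Of 3 plasma cell genes tested only Mzb1 was called. The 4 germinal centre and memory genes tested had no call by either tool and no unadjusted p under 0.05, and the 1 age-associated gene tested, Zeb2, had an adjusted p of 0.103 (edgeR). Ccl2 and Ccl7, ligands of the monocyte receptor CCR2, were below the filter, with 1, 0 and 11 UMIs of Ccl2 and 1, 0 and 1 of Ccl7 in lambda cells. The other B cells gave 2, 0 and 280 UMIs of Ccl2 and 0, 0 and 97 of Ccl7. In CPM at 3 days, lambda cells had 18.4 of Ccl2 and 1.67 of Ccl7, against 27.0 and 9.37 in other B cells.

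Antibody counts were deposited for both transplant libraries and allowed a look at surface proteins. Of 20 antibody features with enough counts, 0 (0.0%) were called between lambda and other B cells by edgeR, 1 had an unadjusted p under 0.05, and DESeq2 called 3. CD45R, the B220 form of CD45 on B cells, had a median of 16 counts per lambda cell at 2 hours and 15.5 at 3 days, against 18 and 17 in other B cells and 0 and 0 in T cells. CD44, an adhesion receptor that rises on activated lymphocytes, had the unadjusted p under 0.05 (log2 difference 0.38, adjusted p = 0.461, edgeR), with medians of 4 and 5 counts in lambda cells and 4 and 4 in other B cells. ITGB7, an integrin of gut homing, had medians of 10.5 and 21 counts against 12 and 28. DESeq2 called CD45R, CD44 and ITGB7, with differences of 0.31, 0.60 and 0.31. The sign for CD45R and ITGB7 depended on scaling: per cell, lambda cells had fewer counts of CD45R (17.4 against 19.6 at 2 hours, 15.2 against 17.7 at 3 days) and of ITGB7 (12 against 14.1, 27 against 30.2).

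The conditions could be compared within lambda cells only as values, since each had 1 library. Among 3449 genes with at least 50 UMIs over all lambda cells, 285 (8.26%) were at least 2-fold higher and 979 (28.4%) at least 2-fold lower at 2 hours than in naive cells, on the scale of log2 of CPM plus 10, and the median log2 ratio of all these genes was −0.35. From naive to 3 days, 154 (4.47%) were higher and 569 (16.5%) lower with a median of −0.05, and from 2 hours to 3 days 553 (16%) were higher and 210 (6.09%) lower with a median of 0.24. Without the Siglech cells 3315 genes could be compared, and the counts of higher and lower genes were 264 and 945, 127 and 556, and 516 and 221. With cells thinned to 500 UMIs, which changed depth, cells and genes together, 363 genes could be compared, of which 102 were higher and 40 lower at 2 hours than in naive cells, with a median of 0.43. The part of depth in this turn was not tested. The naive file was written by another version of the counting software than the transplant files, and no source used here says whether intronic reads were included. Agbl1, Immp2l and Cmss1 were among the 5 genes with the largest ratios below naive in both transplants, together with Ambra1 and Phlpp1 at 2 hours and Kcnq5 and Maml2 at 3 days. Agbl1 had 397 UMIs in naive lambda cells, 0 at 2 hours and 2 at 3 days, and 286, 1.08 and 0.483 CPM in other B cells. For such genes, counting and condition cannot be told apart.

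At 2 hours, lambda cells had high levels of most of the immediate-early genes and of the homing genes Cxcr4 and Ccr7, as the other B cells did. Cxcr4, the chemokine receptor for CXCL12, stood at 228, 2305.3 and 227 CPM in lambda cells, against 199, 2729.3 and 295 CPM in other B cells. Its log2 ratio from naive to 2 hours was 3.34 (counting interval 2.97 to 3.72) in lambda cells and 3.78 (3.66 to 3.91) in other B cells. Jun stood at 75, 829 and 86.9 CPM and Fos at 45.7, 750 and 66.9 CPM in lambda cells. Klf2, a transcription factor of lymphocyte trafficking, was at 966, 3021.1 and 964 CPM. The 12 immediate-early genes together gave 3693.0, 9587.5 and 3508.3 CPM in lambda cells, 3899.6, 9869.1 and 4016.0 CPM in other B cells, and 2907.9, 7254.6 and 3385.0 CPM in T cells. Their level was thus high at 2 hours in all 3 kinds of cell and near the naive level at 3 days.

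The homing genes summed to 1787.8, 4125.8 and 1743.3 CPM in lambda cells, with log2 ratios from naive to 2 hours of 1.21 (1.04 to 1.37) in lambda cells and 1.5 (1.44 to 1.56) in other B cells. Cxcr4 held the largest part of that sum at 2 hours. Ccr7, the receptor that leads lymphocytes to lymph nodes, had 434, 1042.7 and 393 CPM in lambda cells. The members did not move together. From naive to 2 hours the levels in lambda cells went from 202 to 73.3 CPM for Cxcr5, from 294 to 95.8 CPM for Gpr183, from 104 to 11.3 CPM for Itgb7 and from 45.7 to 0 CPM for Ccr6, while the interval of the log2 ratio of S1pr1 (0.14) reached below 0. Both Itgb7 and Ccr6 had few UMIs, 2 and 0 at 2 hours. MHC class II genes summed to 17613.6, 30521.0 and 20037.0 CPM, with a log2 ratio of 0.79 (0.74 to 0.85) at 2 hours, and Cd74 held the largest part, at 8974.8, 19107.3 and 8223.4 CPM. H2-Aa had a log2 ratio of 0.91 (0.78 to 1.04), whereas that of H2-Ab1 was −0.22 (−0.41 to −0.04), and the intervals of H2-DMa, H2-DMb1 and Ciita spanned 0. Hist1h3e, a histone gene, had 4, 78 and 9 UMIs in lambda cells (13, 440 and 15.0 CPM), Bc1, a short RNA, had 1, 43 and 7 UMIs, and Hspa1b, a heat shock gene, 3 UMIs in naive cells and 50 at 2 hours. These 3 genes, with Il1b and Fos, had the largest ratios from naive to 2 hours.

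Ighm moved the other way. It was lower at 2 hours than in naive lambda cells by 1.06 on the log2 scale (interval of the log2 ratio −1.24 to −0.88), and in other B cells by 0.54 (−0.63 to −0.46). At 3 days the lambda level was near the naive one, with a log2 ratio of −0.07 (−0.17 to 0.03), while that of other B cells was 0.32 (0.29 to 0.36). The difference between lambda and other B cells was therefore largest in naive lungs and smallest at 2 hours, where single-UMI cells were most frequent, and whether it differed between conditions was not tested. The summed immature and transitional genes stood at 2955.7, 2091.1 and 1917.1 CPM in lambda cells and at 1344.0, 1349.5 and 1489.1 CPM in other B cells.

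**Figure D5:**
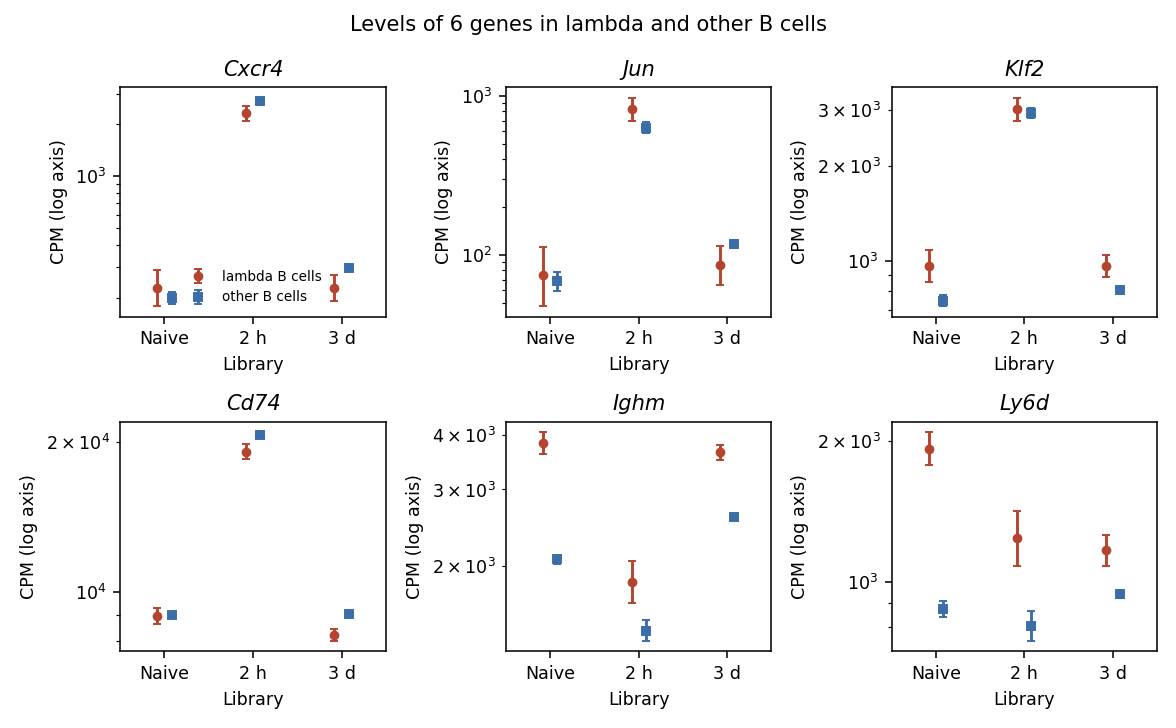
CPM on log axes (vertical) of Cxcr4, Jun, Klf2, Cd74, Ighm and Ly6d in lambda (red circles) and other (blue squares) B cells of the naive, 2 h and 3 d libraries, with 95% Poisson intervals for counting error. Cxcr4, Jun, Klf2 and Cd74 are highest at 2 h in both classes, and Ighm and Ly6d are higher in lambda cells in each library.

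At 3 days the largest ratios over naive lambda cells were those of Siglech, Ctsl, Fn1, Ccr9 and Grn. Siglech gave 168 UMIs, all in the 3 cells described above, and 0 in naive lambda cells, and Ccr9 gave 94 UMIs, 90 of them in the same 3 cells, and 1. Fn1, the fibronectin gene, gave 71 UMIs (119 CPM) and 0, and was at 289 CPM in other B cells at 3 days and 3.12 CPM in naive ones. Ctsl and Grn, genes of lysosomal proteins that macrophages express strongly, were at 129 and 159 CPM in lambda cells and 51.6 and 68.0 CPM in other B cells at 3 days. Between the classes the log2 difference of Grn was 1.03 with the Siglech cells and −0.05 without them, and Ctsl fell below the filter without them. From 2 hours to 3 days the largest ratios were those of the rule gene Lyz2, Rpl10-ps3, Mpeg1, Itgam and Siglech among the higher genes and of Hist1h3e, Bc1, Cd200, Fos and Cxcr4 among the lower. Cd200, which encodes a surface glycoprotein, went from 327 to 23.4 CPM in lambda cells. Mki67, a gene of dividing cells, gave 0, 2 and 18 UMIs in lambda cells, found in 5.21% of them at 3 days and in 1.45% of other B cells. Lambda cells with many Jchain transcripts were outside the rule and are not described here.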

How the data were processed

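Single-cell suspensions were run on the 10x Genomics platform, and the authors deposited raw UMI counts, produced per the file headers with Cell Ranger 7.1.0 (naive) and 6.0.0 (transplants). The submitters' processing notes name mm10 and Seurat 4. Cell filters, the light chain rule and exact intervals were applied here in Python (scipy 1.17.1), doublets were called by Scrublet in scanpy 1.11.5 and removed only as an alternative (0, 3 and 2 lambda cells), and UMIs were summed per library and class. The sums were tested by edgeR 4.0.16 (TMM, library block, genes passing its filter) at an adjusted p of 0.05, with DESeq2 1.42.0 as an alternative. Sums of 7105 genes were simulated for that comparison with a spread set beforehand and not estimated from these data. Changed genes were drawn only from those with enough UMIs, and 87 changed by 1 and 80 changed by 2 (log2 scale) passed the filter. Of these, 52.9% and 97.5% were called, and 5 unchanged genes were called. Recovery at the spread of the real sums was not tested. Conditions, with 1 library each, were not tested. Whether the 3 class sums vary as animals would is unknown, since each pools 2 mice, and p-values measure only the spread between these libraries.

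The cells and gene lists were chosen with earlier results of these data known. The text names the 10 genes of smallest p in each direction that moved the same way in 3 libraries, the 5 genes of largest ratio per pair of conditions, and list members with at least 20 UMIs. Pax5, Ctsb, Psap and list members with fewer UMIs (such as Rag1, Cd5 and Ccl7) were named after their values were seen. Intervals cover counting error only. Lambda constant sequences and positions came from GENCODE vM21 on GRCm38, and identity was computed with Biopython 1.88.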

Additional observations from a re-analysis of the deposited data

Results flagged for a closer look

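The summed NK cell markers differed in direction between the libraries. Lambda cells lay below other B cells in naive lungs (log2 ratio −4.75) and at 2 hours (−1.19), and above them at 3 days (0.45). The difference between the libraries was not tested. At 3 days 1 lambda cell held 71 of the 75 Gzma UMIs.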

How the results depend on the processing

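A fit with the library as a block was the main one, and without it 0 genes were called higher and 0 lower (edgeR; 18 and 22 at an unadjusted p under 0.05). Between conditions no paired analysis was possible because the labels give each group a single replicate number. The count of genes higher in lambda cells was 19 of 7149 tested with DESeq2, 60 of 18424 without a filter on low counts and 47 of 6916 against cells with more Igkc. It was 1 of 2739 with cells thinned to 500 UMIs and 16 of 7067 without the Siglech cells. When the naive, 2 hour or 3 day library was left out, it was 41 of 7201, 69 of 9698 and 46 of 7132. These counts thus come from unlike numbers of genes. The count of lower genes was 8 with DESeq2, 112 without the filter, 1 after thinning, and 39 to 79 when 1 library was left out. Plac8 reversed after thinning (−0.03). The cause was not tested. DESeq2 called 3 antibody features.

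The lambda share was 6.23% of all B cells at 2 hours with the stricter threshold, which left many of these B cells in neither class. It was 7.47% at 3 days after thinning. The Iglc1 share was 40.8%, 19.5% and 51.0% counted by cells, and 50.9% in naive cells after thinning. Genes past 2-fold within lambda cells changed with the genes tested. With at least 10 UMIs there were 672 higher and 2204 lower (2 hours over naive), 511 and 1218 (3 days over naive), and 1428 and 471 (3 days over 2 hours). After thinning, which left 363 genes, the counts were 102 and 40, 56 and 35, and 44 and 67, and the median log2 ratio from naive to 2 hours was 0.43 in place of −0.35. With CPM plus 50 they were 152 and 600, 59 and 378, and 163 and 121. Outside ribosomal protein, mitochondrial and immunoglobulin genes, 237 were higher from naive to 3 days.

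Depth limits the library at 2 hours most: 44.2% of its lambda cells rest on a margin of 1 UMI.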
